A study of Mus musculus with 2 samples.

Results

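The genes of threonine breakdown, glycine cleavage and folate one-carbon metabolism were followed in E14 mouse embryonic stem cells given a control shRNA or an shRNA against the deubiquitinase USP21. The rows were picked by gene symbol, and the symbols were chosen with earlier results of these data known. All 9 symbols (Tdh, Gcat, Gldc, Amt, Shmt1, Shmt2, Mthfd1, Mthfd2 and Mat2a) were present among the 23889 symbols of each library. Their direction was split. With the USP21 shRNA, Amt, Tdh, Gcat and Shmt1 were lower and Mat2a was higher, each outside the quartiles of all genes. Mthfd2 was also higher, but within these quartiles. None of the 9 genes reached a 2-fold difference. Each group is 1 library, so no value below has a replicate error and no difference could be tested.

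The control group is described as genotype Normal and the other group as USP21 knockdown. Both come from the E14 line, which the labels trace to a 19/Ola mouse, were kept without feeders on gelatin in medium with 15% serum and 1000 U/ml LIF, and were harvested 3 days after transfection. LIF is the cytokine that keeps mouse embryonic stem cells undifferentiated. The labels do not say which USP21 shRNA was used. They mention no selection of transfected cells, so whether cells without the shRNA were part of a library is not known. The purpose of the comparison, from the design text, was to profile gene expression after USP21 knockdown. Usp21 itself had an FPKM of 26.2 in the control library against 3.49 after USP21 shRNA, a log2 ratio of -2.87, and 6 of 11927 genes had a lower one. FPKM is the number of sequenced fragments scaled by transcript length and by the mapped fragments of the library, so levels of different genes can be compared on it. The ratio used throughout is the log2 of USP21 shRNA over control shRNA after adding 0.1 FPKM to each value, which understates the difference of low genes. Where a pair of FPKM values stands alone, the control library comes first. Counts and medians use the 11927 genes that reached an FPKM of 1 in either library, and all 9 genes were among them.

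Mouse embryonic stem cells are known for a heavy use of threonine. Threonine dehydrogenase (Tdh) oxidises it in the mitochondria, and glycine C-acetyltransferase (Gcat) splits the product into glycine and acetyl-CoA. The glycine cleavage system then passes a carbon of glycine to tetrahydrofolate, the carrier of one-carbon units, to which serine also donates through the Shmt enzymes. The Mthfd enzymes convert the carried unit between its forms, for purine and thymidylate synthesis and for the remethylation of homocysteine to methionine, from which Mat2a makes S-adenosylmethionine, the methyl donor for histone and DNA methylation.

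The promoters of the members at both ends of the range of ratios, Amt (lowest) and Mat2a (highest), are shown as RefSeq gives them for GRCm38.p6. Each runs from 250 bases before the annotated start to 50 bases from it on, on the gene's own strand. Capitals mark CCAAT or its reverse complement, a motif bound by the factor NF-Y. The Amt window is chr9:108296655-108296954 on the plus strand, and the Mat2a window is chr6:72439507-72439806 on the minus strand.
Amt: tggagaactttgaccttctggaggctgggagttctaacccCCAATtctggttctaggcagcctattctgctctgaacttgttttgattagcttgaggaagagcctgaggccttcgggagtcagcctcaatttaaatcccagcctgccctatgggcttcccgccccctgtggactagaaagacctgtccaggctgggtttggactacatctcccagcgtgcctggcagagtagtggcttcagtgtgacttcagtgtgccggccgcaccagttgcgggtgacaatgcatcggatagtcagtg
Mat2a: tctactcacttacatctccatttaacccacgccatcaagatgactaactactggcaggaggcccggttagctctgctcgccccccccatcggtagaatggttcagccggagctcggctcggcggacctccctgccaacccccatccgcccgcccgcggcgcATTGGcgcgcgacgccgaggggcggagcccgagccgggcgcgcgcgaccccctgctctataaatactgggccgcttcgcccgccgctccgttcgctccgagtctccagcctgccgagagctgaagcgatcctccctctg
Of the 9 members, 8 have a promoter in that table (the entry for Tdh is missing), and CCAAT on either strand was in 6 of them, against 37.4% of the 32851 promoter windows of all genes. The other motifs were also searched on both strands. In the member windows no site overlapped a site of another motif, but neighbouring GGGCGG sites overlapped each other in Mat2a and in Shmt1. The GC box GGGCGG was in 6, against 35.7%. TATAAA was only in the Mat2a window (13.6% of all windows), and the E-box CACGTG only in that of Gcat (7.15%). TGATGCAA was in none of the 8, and in 0.895% of all windows. The motif CCAAT was present on both sides of the split, in Amt, Gldc, Mthfd1 and Shmt1 among the lower members and in Mat2a and Mthfd2 among the higher.

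Tdh was the highest-expressed member in the control library and had the second lowest ratio. Tdh (chromosome 14 of GRCm38, 63492347 to 63509092, minus strand, 9 exons in the transcript with the longest coding sequence, as for all exon counts given here) had an FPKM of 191.2 in the control library against 122.6 after USP21 shRNA. Its log2 ratio was -0.64, or 0.641 times the control level. In the control library 97.3% of the genes above 0 were lower than Tdh, and it moved from first to second place among the 9 members. Of the 500 genes nearest to Tdh in mean level, 11 had a lower ratio, and over all 11927 genes 637 had. The libraries are bulk RNA, so fewer cells with Tdh and less Tdh RNA per cell cannot be told apart. Markers of pluripotency were on the same side. Of 10 listed markers of embryonic stem cells 9 were lower, against 49.6% of all genes (7 of 10 against 29.3% after scaling to equal FPKM sums). Their median log2 ratio was -0.26 (-0.20 corrected for transcript length and GC content), against 0.0031 for all genes. These markers are highly expressed, from an FPKM of 55.4 (Fbxo15) to 1849 (Dppa5a) in the control library. Ratios were lower in general at high levels, with a median of -0.15 for the 500 genes nearest to Tdh. The marker list was not set against genes of its own level, so a marker shift cannot be told from this trend. The part of these markers in the Tdh difference was not tested. Gcat (chromosome 15, 79030874 to 79038353, plus strand, 9 exons) stood far below Tdh, at 22.3 in the control library and 16.1 in the other, a log2 ratio of -0.47. The Gcat level was 0.117 of that of Tdh in the control library and 0.131 in the other. Both steps of the route were lower in the USP21 shRNA library. The remaining listed enzymes of threonine breakdown, the aldolase Tha1 and the dehydratases Sds and Sdsl, were under an FPKM of 1 in both libraries.

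**Figure D1:**
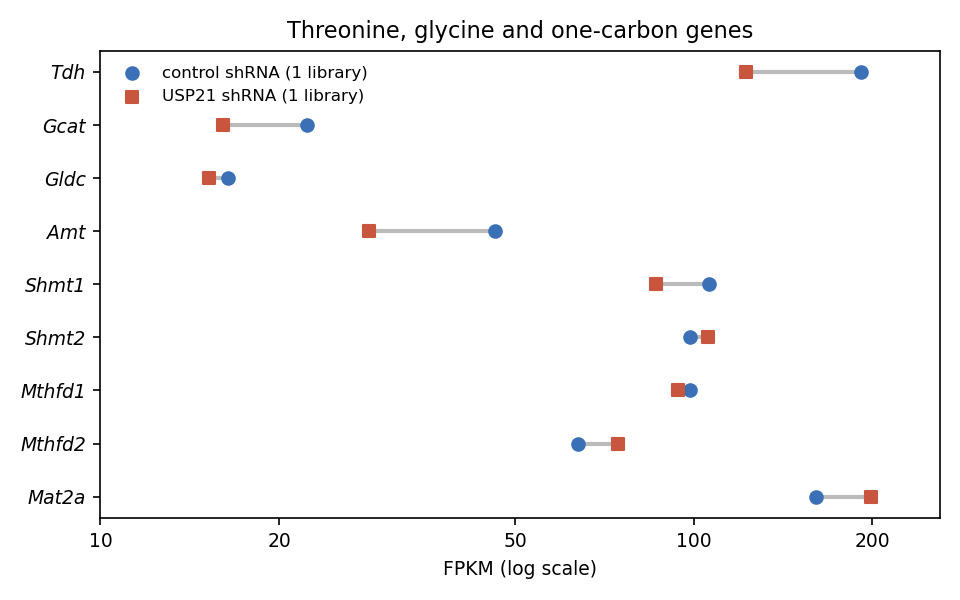
FPKM of the 9 genes on a log axis, with 1 circle for the control shRNA library and 1 square for the USP21 shRNA library. Tdh, Gcat, Amt and, to a lesser extent, Shmt1 are displaced to the left with the USP21 shRNA. Mat2a and Mthfd2 are displaced to the right, and Mat2a takes the first place from Tdh.

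The members of the glycine cleavage system differed from each other. Amt, the aminomethyltransferase or T protein (chromosome 9, 108296853 to 108302302, plus strand, 9 exons), had an FPKM of 46.3 in the control library against 28.4 after USP21 shRNA. This was the lowest log2 ratio of the members, -0.71, or 0.613 times the control level. Only 8 of the 500 genes nearest in level had a lower ratio than Amt. Gldc, the glycine decarboxylase or P protein (chromosome 19, 30098447 to 30175429, minus strand, 25 exons), was at 16.4 and 15.2, a log2 ratio of -0.11. It was the lowest-expressed member in both libraries, and 164 of its 500 neighbours in level had a lower ratio. Within a library the scaling of the values cancels, and Amt stood at 2.82 times Gldc in the control library and at 1.86 times in the other. A trend of the ratio with transcript length does not cancel, and Amt has 2082 bases and Gldc 3767. Corrected for length and GC content, their log2 ratios were -0.65 and -0.18. The other subunits were near Gldc in ratio, with -0.10 for Gcsh, the lipoyl carrier or H protein (FPKM 106.5 and 99.3), and -0.14 for Dld, the dihydrolipoamide dehydrogenase shared with other complexes (69.7 and 63.2). Amt was the only subunit outside the quartiles of all genes, which were at log2 ratios of -0.22 and 0.24. Gldc turned to 0.067 after both libraries were scaled to the same FPKM sum, and Gcsh to 0.017 after a correction for transcript length and GC content.

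The serine hydroxymethyltransferases make glycine from serine, Shmt1 in the cytosol and Shmt2 in the mitochondria. Shmt1 (chromosome 11, 60788104 to 60811718, minus strand, 12 exons) had an FPKM of 106.0 in the control library against 86.4 after USP21 shRNA, a log2 ratio of -0.29. Shmt2 (chromosome 10, 127517123 to 127522444, minus strand, 12 exons) had 98.7 and 105.6, a log2 ratio of 0.097. The order of the pair was reversed between the libraries, with Shmt2 at 0.931 times Shmt1 in the control library and 1.22 times in the other. Of the genes nearest in level, 101 of 500 lay below Shmt1 in ratio and 417 of 500 below Shmt2. Over all 11927 genes 2238 lay below Shmt1 and 7303 below Shmt2.

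Between Mthfd1 and Mthfd2 the mitochondrial enzyme had the higher ratio, but its mitochondrial relative Mthfd2l had the lowest ratio of the folate enzymes (-0.91). Mthfd1 (chromosome 12, 76255298 to 76319803, plus strand, 28 exons), the cytosolic enzyme that joins several of these activities in one protein, was at 98.6 and 94.1, a log2 ratio of -0.067. Mthfd2 (chromosome 6, 83305691 to 83325908, minus strand, 8 exons), the mitochondrial dehydrogenase and cyclohydrolase, was at 63.9 and 74.6, a log2 ratio of 0.22. Mthfd2 stood at 0.648 times Mthfd1 in the control library and at 0.793 times in the other, and 449 of its 500 neighbours in level had a lower ratio. Over all 11927 genes 3135 were above Mthfd2 in ratio. Mthfd1l, which completes the mitochondrial route to formate, was at 44.4 and 45.9 (log2 ratio 0.049, and -0.0035 corrected for length and GC content).

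**Figure D2:**
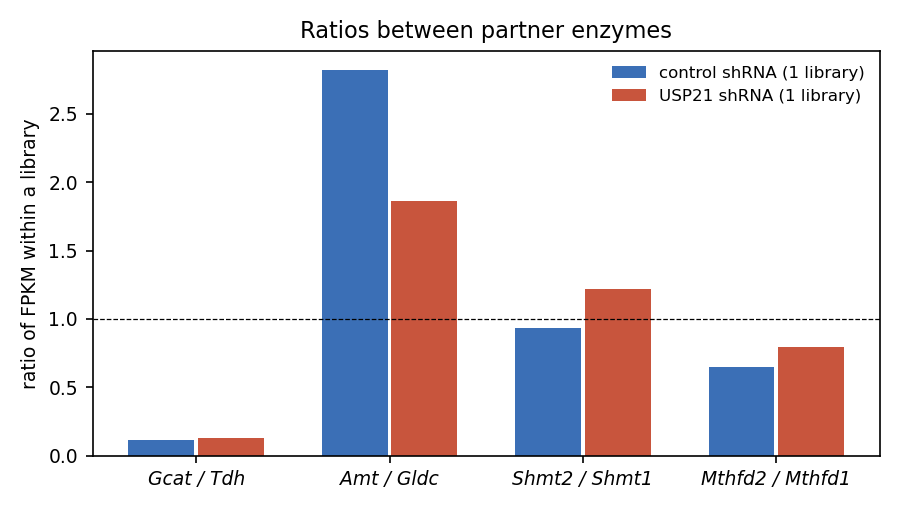
Ratio of the FPKM of 2 partner enzymes within each library, with the dashed line at 1 for equal levels and 1 bar per library. Shmt2 over Shmt1 goes from 0.931 to 1.22 and Mthfd2 over Mthfd1 from 0.648 to 0.793, while Amt over Gldc goes from 2.82 to 1.86.

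Mat2a, the catalytic subunit of the S-adenosylmethionine synthetase of most tissues (chromosome 6, 72432799 to 72439558, minus strand, 9 exons), had the highest ratio of the members. Its FPKM was 160.6 in the control library against 199.0 after USP21 shRNA, a log2 ratio of 0.31. It took the first place among the members in the USP21 shRNA library, and 479 of the 500 genes nearest in level had a lower ratio. Over all 11927 genes its place was less extreme, with 2370 higher in ratio. Its regulatory subunit Mat2b was at 58.2 and 59.9 (log2 ratio 0.041), and the liver isoenzyme Mat1a was listed at 0 in both libraries. Values are per gene, so a shift between Mat2a splice forms would not be seen.

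None of the 9 passed 2-fold, where 4.33% of all 11927 genes did. Of the 9, 6 had a log2 ratio below 0, against 49.6% of all genes, and their median was -0.11, against 0.0031 for all genes. Highly expressed genes had lower ratios in general. The median of the 500 genes nearest in level was -0.15 for Tdh and Mat2a, -0.12 for Shmt2, -0.10 for Shmt1 and Mthfd1, and -0.081 for Mthfd2. For Amt it was -0.020, for Gcat 0.014 and for Gldc 0.036. Of these neighbours, 288 had a lower ratio than Mthfd1, and 32 a lower ratio than Gcat. The sum of the 9 FPKM values was 804 and 742, or 0.131% and 0.137% of the summed FPKM of each library. Rescaling both libraries to the same FPKM sum raised the ratio of each member by about 0.18, and likewise the median of all genes (to 0.18). Then 4 members and 29.3% of all genes were below 0, Gldc and Mthfd1 turned to values above 0 (0.067 and 0.11), and 6 members were below the median of all genes, the same number as before.

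**Figure D3:**
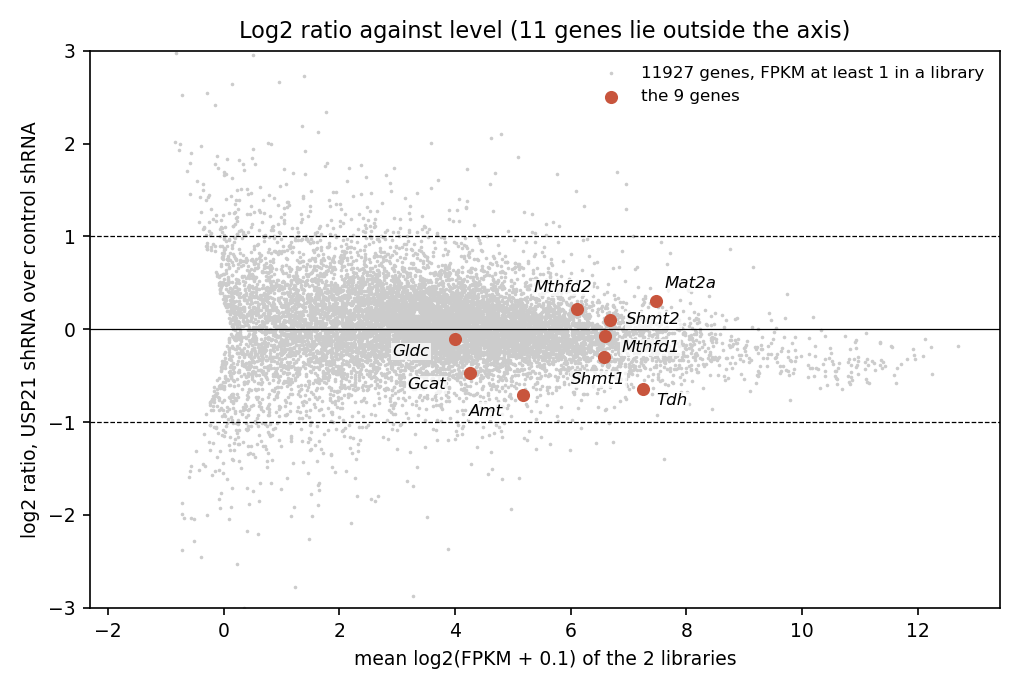
Log2 ratio of USP21 shRNA over control shRNA against the mean log2(FPKM + 0.1) of both libraries, with 1 grey point per gene and the 9 members in red. Of the 11927 genes, 11 lie outside the axis. Dashed lines mark 2-fold, which no member passes. Amt and Tdh lie low among genes of their level, with 8 and 11 of 500 neighbours lower, and Mat2a high, with 479 of 500 lower.

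The other genes of the pathway were taken from 10 lists of 83 genes in all, members included, of which 75 reached an FPKM of 1 in either library. Of the 75, 3 were at least 2-fold lower and 2 at least 2-fold higher, against 2.03% and 2.3% of all genes. The median over the 75 was -0.067, and 44 of the 75 (58.7%) were below 0, against 49.6% of all genes. After rescaling to equal sums 25 of the 75 were, against 29.3%.

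Serine synthesis and de novo purine synthesis were mostly on the lower side, against 49.6% of all genes below 0 (29.3% after rescaling). All 3 genes that make serine from a glycolytic intermediate were below 0 (2 of 3 after rescaling), from Phgdh, the first enzyme (126.5 and 94.9, log2 ratio -0.41), to Psph, the last (31.6 and 30.6, -0.045). Of the 31-base words of these genes, 74.1% of Phgdh and 24.8% of Psph occur in other annotated genes. Purine synthesis builds glycine and folate-borne carbons into its ring, and 9 of its 11 genes were below 0 (7 of 11 after rescaling). Its median was -0.23, against 0.0031 for all genes, and after rescaling -0.054, against 0.18. Highly expressed genes had lower ratios in general, and neither list was set against genes of its own level. Atic, the bifunctional enzyme of the last steps to inosinate, was at 205.1 and 140.8 (log2 ratio -0.54). The lowest was Adssl1, a muscle-type adenylosuccinate synthase, which passed 2-fold at a low level (2.54 and 1.10, -1.14), but not after rescaling. The highest was Impdh1, which acts on the way to guanine nucleotides (22.6 and 34.9, 0.62).

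Among amino acid transporters, 7 of 10 genes were above 0, with a median of 0.27, against 50.4% of all genes (8 of 10 against 70.7% after rescaling). The glycine transporter Slc6a9 passed 2-fold upward (2.03 and 4.30, log2 ratio 1.05), and 23.7% of its words of 31 bases are shared with other annotated genes. Sfxn3, which belongs to the sideroflexin family of mitochondrial serine carriers, passed it downward (6.01 and 2.78, -1.08), but not after rescaling. The synthetases that charge threonine, glycine, serine and methionine ranged from Tars (95.2 and 85.6, -0.15) to Tarsl2 (3.22 and 4.44, 0.45). Of these, 6 of 8 were above 0 (8 of 8 after rescaling), but their median of 0.036 was close to that of all genes, and likewise after rescaling (0.21 against 0.18).

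Among the remaining folate genes no gene passed 2-fold. Mthfd2l, a mitochondrial relative of Mthfd2, had the lowest ratio (1.61 and 0.808, log2 ratio -0.91). In folate uptake and retention, 5 of 6 genes were below 0, against 49.6% of all genes (3 of 6 against 29.3% after rescaling). The lowest was Ggh, the hydrolase of stored folate (5.17 and 4.14, -0.31). The exception was the folate receptor Folr1 (37.3 and 56.2, 0.59).

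In the methionine cycle and transsulfuration 7 of 10 genes were above 0, with a median of 0.15, against 50.4% of all genes, and after rescaling 8 of 10 were, against 70.7%. Bhmt, which remethylates homocysteine with betaine, passed 2-fold upward at a low level (0.806 and 2.52, log2 ratio 1.53), and 69.5% of its words of 31 bases occur in other genes. Ahcyl1, a relative of the S-adenosylhomocysteine hydrolase, had the lowest ratio (36.4 and 30.0, -0.28). In polyamine synthesis and methionine salvage 6 of 9 genes were below 0, against 49.6% of all genes (3 of 9 against 29.3% after rescaling). The rate-limiting ornithine decarboxylase Odc1 was at 350.0 and 199.8 (-0.81), and 52.0% of its words are shared. The spermine synthase Sms was the highest of this list (22.3 and 32.0, 0.52), with 29.0% of its words shared.
The lowest ratio of all lists, -4.35 for the S-adenosylmethionine decarboxylase gene Amd1 (4.22 and 0.112), does not stand by itself. Amd1 shares 91.3% of its words with Amd2, and with both genes summed the FPKM was 74.1 and 61.4, a log2 ratio of -0.27.

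**Figure D4:**
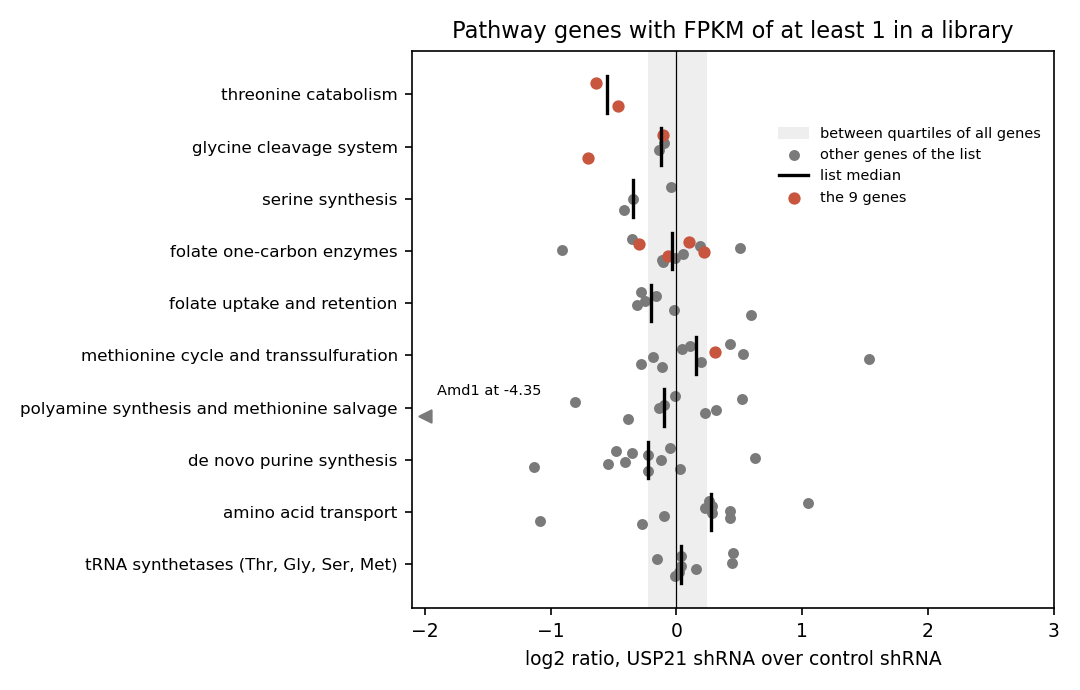
Log2 ratio of each pathway gene that reached an FPKM of 1 in either library, by list, with members in red, other genes in grey, list medians as black bars and the range between the quartiles of all genes shaded. Amd1, at -4.35, is drawn as a triangle at the left edge. The medians go from -0.55 for threonine catabolism (2 genes, the members Tdh and Gcat) to 0.27 for amino acid transport (10 genes).

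The control library was about 1.24 times as deep as the other, read from the steps of 1 fragment in 1439 genes under an FPKM of 0.1, and no count behind a value can be given. The ratio followed transcript length across genes (Spearman rho 0.32 across 11378 genes, a description), and the members' transcripts were of 1881 (Tdh) to 3767 bases (Gldc). Corrected for length and GC content, the ratios were -0.65 for Amt, -0.60 for Tdh, -0.46 for Gcat, 0.28 for Mthfd2 and 0.36 for Mat2a, and no member changed sign. Some fragments could belong to other genes, since 24.7% of the 31-base words of Tdh and 21.99% of those of Mat2a occur in other annotated genes, against 6.08% or less for the other 7. On the opposite strand, 184 bases of the Shmt1 transcript overlap exons of Smcr8 (10.8 and 13.9 FPKM) and 213 bases of that of Mat2a overlap Particl. No source states that strand was used in counting.

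Markers of other cell types were low next to those of embryonic stem cells, whose 10 markers summed to an FPKM of 4619 and 3562. The 8 fibroblast markers summed to 19.9 and 7.19, of which Thy1 made up 17.3 and 5.29, with Lum listed at 0 in both libraries. The 5 primitive endoderm markers summed to 24.6 and 23.4, the 4 of early mesoderm to 2.61 and 2.47, and the 5 neural markers to 47.8 and 34.4, mostly Tubb3 (38.5 and 20.4). By gene they were mixed. Of the 4 neural markers that reached an FPKM of 1, 3 were above 0 and 1 of these passed 2-fold. Of the 5 primitive endoderm markers 3 were below 0 and 1 of these passed 2-fold. Of the fibroblast markers 2 reached an FPKM of 1, and these 2 were below 0, with Thy1 past 2-fold (log2 ratio -1.69). Of the 2 early mesoderm markers at that level, 1 was below 0 and 1 above. Among all genes 49.6% were below 0 and 4.33% passed 2-fold. The part of these markers in the differences above was not tested.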

How the data were processed

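Total RNA of 1 control shRNA and 1 USP21 shRNA culture of E14 cells was sequenced on an Illumina instrument. The values deposited by the authors are FPKM, listed by gene symbol, with no counts beside them. The submitters' processing notes name CASAVA 1.8.2, TopHat2 2.0.14, Cufflinks 2.2.1 and genome build mm9. Their settings and the gene annotation are not given in the sources used here, and the paper does not describe this sequencing. The files hold no coordinates.

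Log2 ratios were computed with 0.1 FPKM added, and counts used an FPKM floor of 1 and a threshold of 2-fold. Neighbours were the 500 genes nearest in mean log2 level. With 1 library per group no test, error or interval was computed. Positions, lengths, GC content and shared 31-base words were taken from the GENCODE M21 annotation of GRCm38, using for each gene its transcript with the most coding bases, and 94.6% of the symbols had one. The lowess span was 0.3. The members and lists were chosen with earlier results of these data known. Named were all 9 members, Usp21, and of each pathway list the genes past 2-fold and those with the highest and lowest ratio at the FPKM floor. A gene that this rule names in the folate enzyme list is not reported here. Dld, Mthfd1l, Mat1a, Mat2b, Atic, Odc1, Tha1, Sds, Sdsl, Gnmt, Bhmt2, Aldh1l2, Amd2, Smcr8, Particl, Thy1, Lum and Tubb3 were added after their values were seen. The ratio and the length correction were tested on simulated data. Alternatives were pseudocounts of 1 and 0.01, equal sums (TPM), a median set to 0, the length and GC correction, no floor and a floor of 5. Python 3.11.15, numpy 2.4.6, pandas 2.3.3, statsmodels 0.14.6 and matplotlib 3.10.9 were used.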

Additional observations from a re-analysis of the deposited data

How the results depend on the processing

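With 1 library per group, the spread between cultures is unknown, no library could be left out, and no value here is more than a difference between 2 libraries. No paired analysis was possible because each group has 1 library and the labels give no replicate numbers. Rescaling to equal FPKM sums was the one setting that moved member ratios by more than 0.1: to -0.46 for Tdh, -0.29 for Gcat, 0.067 for Gldc, -0.53 for Amt, -0.12 for Shmt1, 0.27 for Shmt2, 0.11 for Mthfd1, 0.40 for Mthfd2 and 0.48 for Mat2a, by the construction of that setting. It also moved the members' median to 0.067, the median of the listed pathway genes to 0.11 and the share of all genes below 0 to 29.3%. The count of all genes past 2-fold, 516, was 208 with a pseudocount of 1, 980 without a floor and 216 with a floor of 5. That of pathway genes, 5, was 1 with a pseudocount of 1, 3 after rescaling and 1 with a floor of 5. A larger pseudocount shrinks the ratios of low genes. Rescaling raised ratios by about 0.18, and Adssl1 (-1.14) and Sfxn3 (-1.08) then no longer passed 2-fold. Bhmt, Adssl1, Slc6a9 and Amd1 were under an FPKM of 5 in both libraries, so that floor left them out. No member passed 2-fold in any setting run. Summing Amd1 with Amd2, which moved its ratio from -4.35 to -0.27, was added after seeing the data. The median of each of the 10 pathway lists moved by more than 0.1 after rescaling and under no other setting run for it.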

Other observations

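Of the 83 pathway genes, 8 stayed under an FPKM of 1 in both libraries and were left out of the counts. Among them the glycine N-methyltransferase Gnmt was at 0.814 in the control library and 0.243 in the other, Bhmt2 at 0.411 and 0.936, and the mitochondrial folate dehydrogenase Aldh1l2 at 0.627 and 0.977. At this level a value can rest on few fragments, and no difference is read from it.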
